A study of Homo sapiens with 31 samples.

Results

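The large-subunit ribosomal protein genes were examined in NALM-6 cells, an established line of B-cell precursor acute lymphoblastic leukemia. A member was any protein-coding gene of the count table whose symbol is RPL followed by a number, with an optional letter or copy number, or RPLP0, RPLP1 or RPLP2. This rule found 52 of the 30667 gene identifiers of the table. RPL36AL (314 ± 26.2 CPM, SD, n = 31) lies outside it. Unique molecular identifiers (UMIs) each stand for 1 captured RNA molecule, and CPM are UMIs of a gene scaled to the same total in every library.

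All cells carried a lentiviral vector with a hairpin placed behind the red fluorescent protein dsRED. The hairpin was directed against XIAP, an inhibitor of caspases (sh-XIAP), or against eGFP (sh-CTRL). It was expressed from the EF1a promoter, which the study used for moderate knockdown (KD), or from the SFFV promoter, used for strong KD. Cells were sampled 4, 10 and 13 days after transduction, with 3, 3 and 3 libraries for EF1a/sh-CTRL, 2, 2 and 3 for EF1a/sh-XIAP, 3, 2 and 2 for SFFV/sh-CTRL, and 2, 3 and 3 for SFFV/sh-XIAP. The labels describe culture in vitro, whereas the design text of the series speaks of cells from mouse bone marrow. Nothing states that libraries of a group came from separate cultures, so the p-values measure the spread between these libraries, which may be technical. The study left samples that stood out in a principal component analysis out of its expression analysis. Whether the libraries here are those left after that step is not stated, so their spread may be that of a trimmed set.

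Libraries held between 312852 and 1153668 UMIs (median 603822). All 12 B-cell precursor markers were above 1 CPM on average and summed to between 4628 and 5318 CPM, whereas the T cell, myeloid, erythroid and stromal markers that are in the table summed to at most 11.5 CPM per list. XIAP itself was counted with only 2 to 14 UMIs per library, too few to check its knockdown in single libraries. Over the libraries of all days its mean was 8.80 CPM in SFFV/sh-XIAP and 8.98 CPM in SFFV/sh-CTRL. A large fall of its counts was therefore not seen, and the difference was not tested. The study measured the knockdown on protein.

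The large ribosomal subunit joins amino acids into protein at its peptidyl transferase centre. Its proteins hold the ribosomal RNA in shape, line the tunnel through which the new chain leaves, and form the stalk that recruits elongation factors. Transcripts of these genes commonly begin with a C followed by further pyrimidines, the 5′ terminal oligopyrimidine tract, through which their translation is controlled together. They are among the most abundant mRNAs of growing cells, and processed pseudogenes, which are copies of their mRNAs in the genome, are numerous.

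The start of the transcript is shown for the members that the results turn on, as annotated by RefSeq on GRCh38.p14, with 10 bases before the start and 20 from it. Capitals mark the pyrimidine tract where it begins with C and holds at least 5 bases. RPL34, RPL29, RPL31 and RPL26 had lower levels in deeper libraries, RPLP0 had slightly higher ones, RPL28 stood far apart in 1 library, and RPL39, RPL36A and RPL3 are taken up in the comparisons of the constructs.
RPL34 (chr4:108620566-108620595, plus strand): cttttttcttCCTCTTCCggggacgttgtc
RPL29 (chr3:51995876-51995905, minus strand): cagcccctttCTCTTCCggttctaggcgct
RPL31 (chr2:101002279-101002308, plus strand): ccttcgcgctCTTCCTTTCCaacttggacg
RPL26 (chr17:8383174-8383203, minus strand): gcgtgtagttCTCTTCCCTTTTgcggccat
RPL28 (chr19:55385922-55385951, plus strand): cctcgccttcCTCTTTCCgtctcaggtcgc
RPLP0 (chr12:120201092-120201121, minus strand): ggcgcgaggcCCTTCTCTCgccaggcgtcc
RPL39 (chrX:119791611-119791640, minus strand): ccgccagcttCCCTCCTCTTCCTTTCTCCg
RPL36A (chrX:101391001-101391030, plus strand): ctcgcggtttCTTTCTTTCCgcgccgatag
RPL3 (chr22:39319604-39319633, minus strand): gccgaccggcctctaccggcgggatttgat
The tract was 8 bases in RPL34 and 19 bases in RPL39. RPL3 also begins with C and further pyrimidines, but this run was shorter than 5 bases and was not counted as a tract. RPL28, like RPL34, had a tract of 8 bases. Of the 42 members with an entry, 29 (69.0%) had such a tract at an annotated start, and of the 27 small-subunit genes with an entry 19 (70.4%). Among 11643 protein-coding genes of the table with an entry, the share was 7.10%. A tract is a match of letters in this window and not a measurement of translation.

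RPL34 (chromosome 4, 108620566 to 108630412 on GRCh38) was the most counted member, with 20534 ± 3087 CPM (SD, n = 31) and between 16032 and 29169 CPM in single libraries. RPL29 followed with 8294 ± 735 CPM and RPL3, which shapes the peptidyl transferase centre, with 4187 CPM. These UMIs mark 1 end of each molecule, so counts are not proportional to length. Divided by coding length all the same, RPL34, RPL29 and RPL37 were the highest, with 58501, 17389 and 13356 CPM per kilobase of coding sequence. RPL34, RPL29 and RPL37 together held 36.6% of the UMIs of the members. In 45 pairs of neighbours in the order of levels the ranges over libraries overlapped, so that this order is not fixed beyond the spread. RPL34, RPL29 and RPL3 stood apart from each other.

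By role, the stalk genes were counted at 3535 CPM (RPLP0), 1406 CPM (RPLP1), 912 CPM (RPLP2) and 987 CPM (RPL12), although the stalk holds more copies of the P1 and P2 proteins than of P0. RPL5 (1577 CPM) and RPL11 (3172 CPM) encode the proteins that carry 5S RNA into the subunit and that bind MDM2 when ribosome assembly fails. At the peptidyl transferase centre, RPL8 (1003 CPM) and RPL10 (1727 CPM) were below RPL3. The 8 genes of the exit tunnel reached from 8.96 CPM (RPL17) to 2102 CPM (RPL4), and RPL39, whose small protein lines the tunnel, was at 1821 CPM.

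Of the UMIs of RPL17 and its named pseudogenes, 98.8% were on the pseudogenes. Over 30-base stretches of the last 300 bases of its annotated transcript, 94.1% also occur in a transcript of another gene. Named pseudogenes of members held between 5.80% and 8.95% of all UMIs of a library. RPL34 shared its family with 16 named pseudogenes and kept between 40.0% and 50.6% of the UMIs of the family, and over the libraries the log2 levels of RPL34 and of its pseudogenes had a correlation of 0.995 (Pearson's r, n = 31, a description, with library and depth in common). A level of a member is therefore a level of the reads assigned to it, and whether reads that match several places were kept is unknown from the labels and the methods.

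The 6 duplicated copies differed widely. RPL3L, known from skeletal and heart muscle, was at 1.97 CPM, with 39 UMIs in all and 0 UMIs in 8 libraries. RPL10L, known from testis, reached 0.93% of the UMIs of RPL10, RPL22L1 reached 6.32% of those of RPL22, RPL26L1 6.39% of those of RPL26, and RPL7L1, whose protein acts in ribosome assembly, 8.92% of those of RPL7. RPL39L (chromosome 3, 187120948 to 187180908) was at 818 CPM, and its level came to between 38.3% and 55.9% of that of RPL39 in single libraries. Of the 30-base stretches at the end of the RPL39L transcript, 18.5% occur in transcripts of other genes, RPL39 among them, so that reads could be divided between the copies.

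The spread between libraries of a group was compared with counting error as a chi-square per degree of freedom (19 degrees of freedom, 1 where UMIs vary as independent draws). For the 45 members of at least 400 CPM the median was 1.65, beside 1.45 for all 342 tested genes of that level. Of the 45 members, 28 (62.2%) were below 2, beside 71.6% of the tested genes of that level. RPL41 was at 0.45, RPL9 at 0.62, RPL5 at 0.70, RPL10 at 0.81 and RPL11 at 2.18. The largest values were those of RPL34 (314), RPL37 (63.7) and RPL29 (34.2), followed by RPL28 (30.04), RPL39L (28.7), RPL39 (20.8), RPL31 (9.95), RPL32 (8.73), RPL26 (5.32) and RPLP0 (4.09). RPL28 and RPL32 each stood apart in a single library. RPL28 was at 1704 CPM in SFFV/sh-XIAP day 10 replicate 3 and between 553 and 958 CPM in the other 30 libraries. RPL32 was at 1310 CPM in EF1a/sh-XIAP day 13 replicate 3 and between 664 and 818 CPM elsewhere.

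Members did not vary as 1 block. After the mean of each construct and day was removed, the 990 pairs of the 45 members had a median correlation of 0.03 over 31 libraries, and 2.53% of the pairs were above 0.6, beside 3.54% of the pairs of all 342 genes of that level. Another 39 of the pairs were below -0.6, a share that was not counted for the other genes. The points share library and depth. RPL39 and RPL39L were the closest pair (r = 0.98, and 0.96 without EF1a/sh-CTRL day 13 replicate 3, in which both were highest). RPL34, RPL29, RPL37, RPL31 and RPL26 moved with each other, with r from 0.79 to 0.94 over their 10 pairs. These are the members called as falling with total UMIs below. Depth was not removed here, so this is not a result separate from that one. RPL34 ran opposite to RPL3 (r = -0.81).

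The summed share of the members in all UMIs was 8.72 ± 0.39% (SD, n = 31), with a range from 8.08% to 9.63%. It was lower in deeper libraries, with Pearson's r = -0.74 and Spearman's rho = -0.75 between the share and the total UMIs (31 libraries, given as a description). Without the 2 libraries farthest from the median total, r was -0.71 and rho -0.70. Within days r was -0.92 at day 4, -0.70 at day 10 and -0.85 at day 13, and after the group means were removed it was -0.82. The libraries of a day are 10 or 11. Because the total is the denominator of the share, the 2 measures are not independent of each other by construction.

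This relation lay with few members. RPL34, RPL29 and RPL37 summed to between 2.64% and 4.26% of the UMIs (r = -0.77 with the total). The other 49 members summed to between 5.28% and 5.61% and had r = 0.44, which was 0.73 at day 4, 0.80 at day 10 and -0.10 at day 13. The summed share of the 34 small-subunit genes had r = -0.66. In the 5 shallowest libraries, with at most 433992 UMIs, RPL34 was at 21961 to 29169 CPM (median 26655), and in the 5 deepest, with at least 983199, at 16032 to 18452 CPM (median 17658). These ranges do not overlap. RPL37 had medians of 5002 and 3351 CPM in the same libraries and did not overlap either, nor did RPL29 (8353 to 9826 against 7066 to 7699 CPM). In the other direction, RPL35 (1717 to 1897 against 1928 to 2047 CPM) and RPL28 (553 to 668 against 682 to 1704 CPM) did not overlap. The share of all genes without overlap was not counted.

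**Figure D1:**
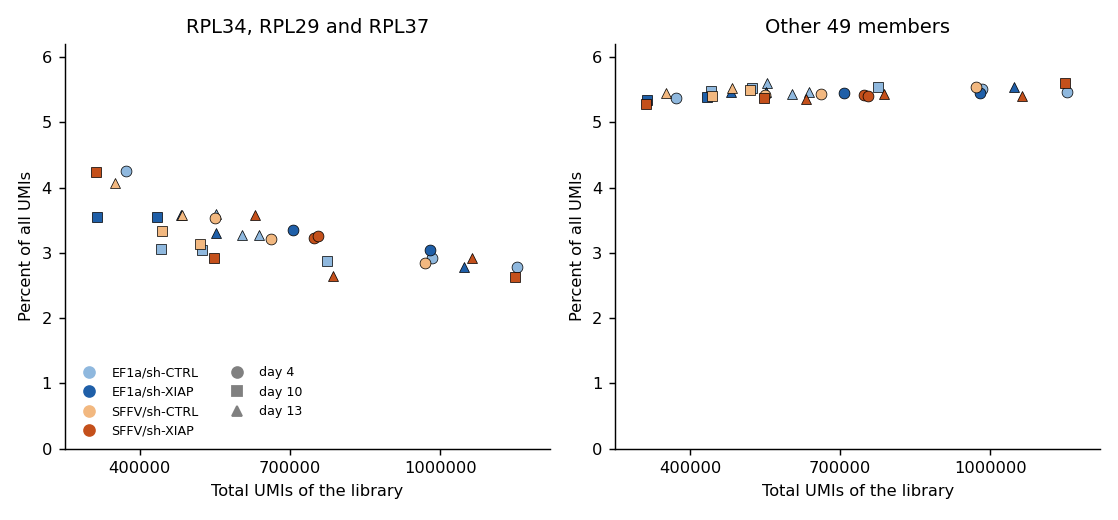
Percent of all UMIs of a library against its total UMIs, for RPL34, RPL29 and RPL37 together (left) and for the other 49 members (right), with 1 point per library, colour for the construct and shape for the day. The left values fall from 4.26% to 2.64% towards deeper libraries, and the right values stay between 5.28% and 5.61%.

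Over all genes, with construct and day in the fit, 11 of the 52 members passed the threshold for a dependence on total UMIs (limma-voom, adjusted p of at most 0.25), beside 1.78% of the 17676 genes tested. Of these members 5 fell, beside 1.3% of genes, and 6 rose, beside 0.475%. Per doubling of the total, RPL37 fell by 0.38 on the log2 scale (SE 0.04, adjusted p = 3.05e-11), RPL34 fell by 0.36 (SE 0.03, with 79.9% of its weight on 1 library), RPL29 fell by 0.23 (SE 0.02), RPL31 fell by 0.22 (SE 0.03) and RPL26 fell by 0.19 (SE 0.02). These 5 fell and passed the threshold under all 10 alternatives except RPL37 in the fit without a filter on low counts, and after every single library was left out. The rises of RPLP0 (0.06), RPL35 (0.07), RPL8 (0.09) and RPL19 (0.05) were small and did not pass in edgeR's quasi-likelihood test. RPL28 (0.43) was at 0.06 without SFFV/sh-XIAP day 10 replicate 3 and RPL32 (0.18) at 0.00 without EF1a/sh-XIAP day 13 replicate 3, and neither then passed.

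When every library was thinned to the smallest total, 8 members fell, beside 0.527% of genes, and 1 rose, beside 0.107%, against the original totals. The 8 included the 5 that fell without thinning. Among the 45 members of at least 400 CPM, the slope with depth had Spearman correlations of 0.30 with coding length, -0.25 with the level, -0.20 with the share of A in the last 300 bases of the transcript and 0.06 with the share of 30-base stretches found in other genes, given as descriptions. The last 300 bases came from 1 annotated transcript per gene, whose end may not be the one counted. For RPL37 that transcript had 7686 bases and 0.0% of shared stretches, although its named pseudogenes held 38359 UMIs. The last 2 correlations therefore do not settle whether shared sequence goes with the slope. Of the 34 small-subunit genes 2 fell, RPS18 (-0.30) and RPS7 (-0.15), and 2 rose.

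**Figure D2:**
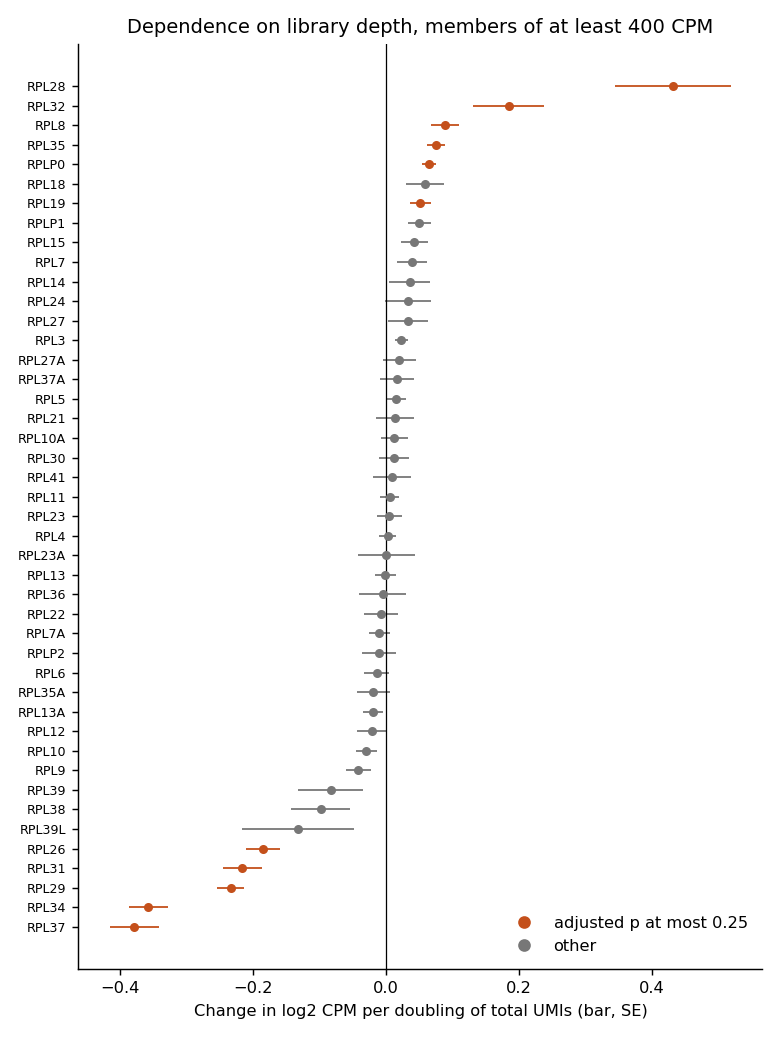
Change in log2 CPM per doubling of total UMIs for members of at least 400 CPM, 1 of them not drawn, with the SE as a bar and members past the threshold in orange. RPL37, RPL34, RPL29, RPL31 and RPL26 lie between -0.38 and -0.19, and most members lie close to 0.

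Strong KD was compared in the 6 SFFV/sh-XIAP and 4 SFFV/sh-CTRL libraries of days 10 and 13, in a fit of all 21 libraries of these days. Depth differed between these groups, with 312852 to 1148669 UMIs in SFFV/sh-XIAP and 351081 to 520334 in SFFV/sh-CTRL, and 5 of the 6 SFFV/sh-XIAP libraries were deeper than all controls. The summed share, which was lower in deeper libraries, was 8.56 ± 0.55% with SFFV/sh-XIAP (8.08% to 9.51%) and 8.999 ± 0.41% with SFFV/sh-CTRL (8.62% to 9.53%), and the ranges overlapped. RPL34 and RPL36A were called lower, which is 2 of 52 members, beside 0.0792% of 17683 genes called and 0.0622% called lower, and 0 members were called higher by limma-voom, beside 1 by edgeR and 0 by DESeq2. At an unadjusted p under 0.05 there were 11 members in either direction (21.2%, beside 5.58% of all genes). Of the members 45 were at 400 CPM or more, beside 342 of the 17676 genes tested over all days. Shares among genes of a like level were not counted in this or the other comparisons, so level and depth may enter them. In bulk libraries fewer cells holding an RNA and less of that RNA per cell cannot be told apart. Over the members the median log2 fold change was -0.02 and 21 of 52 were positive, beside a median of -0.02 over all genes.

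RPL36A, whose protein lies by the exit site for transfer RNA, was at 93.0, 89.5, 91.4, 94.0, 96.6 and 82.4 CPM in the 6 SFFV/sh-XIAP libraries. In SFFV/sh-CTRL it was at 119, 113, 162 and 136 CPM. All SFFV/sh-XIAP libraries were below all SFFV/sh-CTRL libraries, with a log2 fold change of -0.53 (SE 0.12, limma-voom adjusted p = 0.206), and of -0.47 (adjusted p = 0.602) with total UMIs in the fit. The exact permutation test gave p = 0.01, the smallest it can give with these groups and unadjusted over the 79 tests of this kind. At day 4 its means were 105 and 102 CPM (exact permutation p = 0.7). The EF1a libraries of days 10 and 13 had 112 ± 16.1 CPM with sh-XIAP and 118 ± 17.6 CPM with sh-CTRL. A median of 36.1% of the UMIs of the RPL36A family were on RPL36A, and with its 19 named pseudogenes added the log2 fold change was -0.04 and was not called. Leaving out single libraries gave adjusted p from 0.143 to 0.772, and 14 of 21 such fits lost the call.

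RPL34 was called with a log2 fold change of -0.23 (SE 0.02, limma-voom adjusted p = 1.12e-12). In this fit 99.5% of the weight of RPL34 was on 1 library, EF1a/sh-XIAP day 13 replicate 1, which is in neither group of the comparison. The largest weight of a library was 8.57% for RPL36A and 10.0% for RPL39L. It was 49.1% for RPL29, 27.7% for RPL3, 23.5% for RPL37, 21.2% for RPL11 and 12.8% for RPL39. The levels of RPL34 were 19690 ± 4344 CPM with SFFV/sh-XIAP (16032 to 27336 CPM) and 22287 ± 3243 CPM with SFFV/sh-CTRL (19107 to 26655 CPM). They overlapped, and the exact permutation test gave p = 0.36. In edgeR's quasi-likelihood test the log2 fold change was -0.19 (adjusted p = 0.306), and with total UMIs in the fit it was -0.02. In the fit of all days 1 library, EF1a/sh-XIAP day 13 replicate 2, held 99.8% of its weight.

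**Figure D3:**
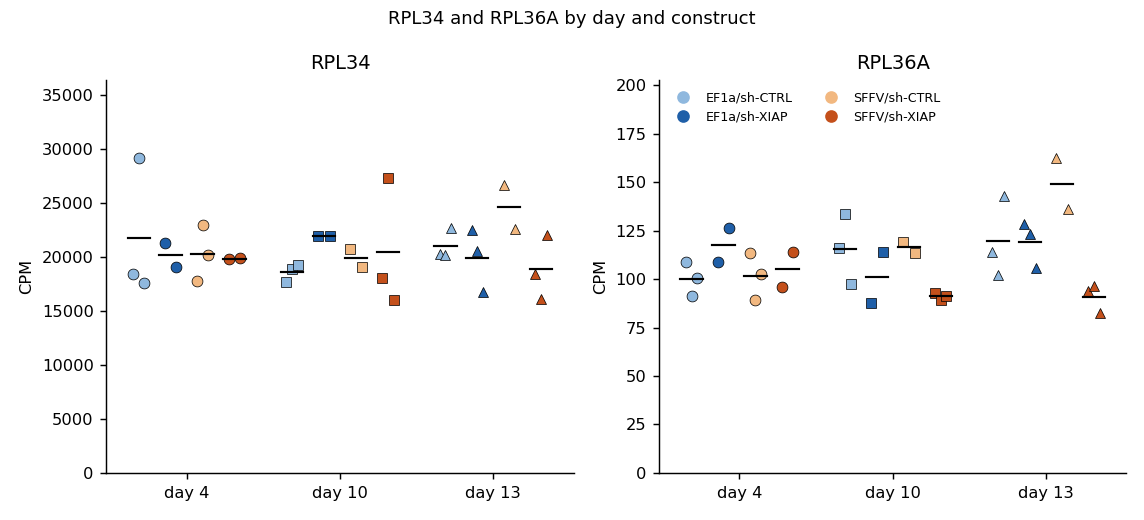
RPL34 (left) and RPL36A (right) in CPM, 1 point per library, by day and, within a day, by construct, with the mean of each group as a line. RPL34 groups overlap, whereas RPL36A of SFFV/sh-XIAP at days 10 and 13 lies between 82.4 and 96.6 CPM, below all SFFV/sh-CTRL libraries of these days.

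RPL39 and RPL39L had lower means with sh-XIAP than with sh-CTRL and did not pass the threshold in the fit of strong KD. RPL39L was at 551 to 765 CPM (median 662) in the 6 SFFV/sh-XIAP libraries and at 727, 911, 849 and 1009 CPM in the 4 SFFV/sh-CTRL libraries. The groups overlapped in 1 of the control libraries. The log2 fold change was -0.41 (SE 0.13, limma-voom adjusted p = 0.573), edgeR's quasi-likelihood test called it (-0.42, adjusted p = 0.000109), and the exact permutation test gave p = 0.02. RPL39 was at 1411 to 1777 CPM (median 1634) and at 1713, 1937, 1937 and 2018 CPM, with a log2 fold change of -0.25 (SE 0.08, adjusted p = 0.573, exact permutation p = 0.03). With moderate KD, the log2 fold changes were -0.35 (SE 0.12) for RPL39L and -0.25 (SE 0.07) for RPL39, with adjusted p = 0.992 for both in limma-voom.

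Over promoters and days, in a contrast added after these values had been seen, the mean with sh-XIAP was below that with sh-CTRL in all 6 pairs of groups with the same promoter and day, for both genes. The log2 ratios of these means ran from -0.52 to -0.27 for RPL39L and from -0.31 to -0.11 for RPL39. After group means were removed the 2 genes had r = 0.98, and reads could be divided between them. The pairs of 1 gene are therefore not a result separate from those of the other. In a fit of all 31 libraries the log2 fold changes were -0.33 (SE 0.08, limma-voom adjusted p = 0.121) for RPL39L and -0.20 (SE 0.04, adjusted p = 0.0717) for RPL39. With RPL34, these were 3 of 52 members called lower, beside 0.113% of genes called and 0.0453% called lower. RPL34 was at 20141 ± 2952 CPM with sh-XIAP (n = 15) and 20902 ± 3260 CPM with sh-CTRL (n = 16, exact permutation test within promoter and day, p = 0.527), and its call (-0.18, limma-voom adjusted p = 0.0505) was lost or reversed under all 10 alternatives other than leaving out a library. The calls of RPL39L and RPL39 held under 5 of 10 alternatives, among them edgeR (adjusted p = 5.03e-06 and 0.00134) and limma-trend (0.0746 and 0.0799). DESeq2 gave adjusted p = 0.9996 for both, and the call was lost with total UMIs in the fit, with adjusted p = 0.336 and 0.334. It was also lost without SFFV/sh-CTRL day 4 replicate 1 (adjusted p = 0.391 for both), without EF1a/sh-XIAP day 4 replicate 2 and without EF1a/sh-XIAP day 13 replicate 3. In EF1a/sh-CTRL, the libraries with the highest RPL39L, 1434 CPM at day 13 and 1276 CPM at day 4, lay beside others at up to 1088 CPM. The call of RPL39L was further lost without SFFV/sh-CTRL day 13 replicate 2. The 14 named pseudogenes of RPL39 followed it with r = 0.98, and with them added the log2 fold change of RPL39 was -0.23 (adjusted p = 0.0411).

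With moderate KD (5 EF1a/sh-XIAP and 6 EF1a/sh-CTRL libraries of days 10 and 13), 1 of 52 members was called, RPL3, beside 0.017% of genes. Its levels were 4273 ± 131 CPM and 4232 ± 109 CPM and overlapped (log2 fold change 0.07, SE 0.01, adjusted p = 0.00974, exact permutation p = 0.765). The call of RPL3 was lost in edgeR, DESeq2 and limma-trend, and in 14 of 21 fits that left out 1 library. In the limma-voom fit 27.7% of the weight of RPL3 was on SFFV/sh-XIAP day 10 replicate 3, which is in neither group. The summed share was 8.80 ± 0.28% and 8.69 ± 0.27%, with overlapping ranges. In the test of strong minus moderate KD the only call was RPL34 (1 of 52 members, beside 0.00566% of genes). RPL34 was at 20756 ± 2339 CPM with EF1a/sh-XIAP and 19840 ± 1678 CPM with EF1a/sh-CTRL, which overlapped (exact permutation p = 0.365), and edgeR, DESeq2 and limma-trend did not call the difference between strong and moderate KD.

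Between the promoters, which compare the control vectors SFFV/sh-CTRL and EF1a/sh-CTRL, the summed share was 8.999 ± 0.41% and 8.69 ± 0.27%, and the ranges overlapped. RPL34, the 1 called member, beside 0.00566% of genes, had 22287 ± 3243 and 19840 ± 1678 CPM (exact permutation p = 0.06). RPL37 had 4235 ± 590 and 3702 ± 277 CPM, overlapping, with exact permutation p = 0.01 unadjusted, and did not pass in limma-voom. SFFV/sh-CTRL libraries of these days held 351081 to 520334 UMIs and EF1a/sh-CTRL libraries 441383 to 774669, so depth moved with the promoter. With total UMIs in the fit the log2 fold change of RPL34 was 0.075 (limma-voom adjusted p = 0.0726).

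At day 4, with 2 SFFV/sh-XIAP and 3 SFFV/sh-CTRL libraries, no exact test can go below p = 0.1. RPL34 and RPL11 were called, 2 of 52 members, beside 0.0109% of 18336 genes. RPL11 was at 3033 and 3183 CPM with sh-XIAP and at 3425, 3177 and 3353 CPM with sh-CTRL. The groups overlapped (log2 fold change -0.12, SE 0.02, adjusted p = 0.0132, exact permutation p = 0.3), and neither edgeR (adjusted p = 0.99) nor DESeq2 called it. RPL11 was not called with strong KD at days 10 and 13 (log2 fold change 0.02, SE 0.03). RPL34 was at 19824 and 19924 CPM with sh-XIAP and at 17832, 22985 and 20193 CPM with sh-CTRL, and the groups overlapped (exact permutation p = 0.7). The fit called it higher (log2 fold change 0.14, limma-voom adjusted p = 0.0021), although the mean with sh-XIAP was the lower one, and edgeR, DESeq2 and limma-trend gave negative values without a call. RPL5, its partner in the 5S particle, had log2 fold changes of -0.04 (SE 0.03) at day 4 and 0.02 (SE 0.03) at days 10 and 13.

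Over time the summed share was 8.69 ± 0.39% at day 4 (n = 10), 8.68 ± 0.38% at day 10 (n = 10) and 8.80 ± 0.43% at day 13 (n = 11). The ranges of the 3 days overlapped. At day 10 RPL34 and RPLP1 were called lower than at day 4, 2 of 52 members, beside 0.26% of genes called and 0.13% called lower. RPL34 was at 20117 ± 3149 CPM at day 10 and 20643 ± 3403 CPM at day 4, with overlap (exact permutation p = 0.842). Its call (log2 fold change -0.26, limma-voom adjusted p = 0.0906) was lost in 10 of 31 fits that left out 1 library and in edgeR, DESeq2 and limma-trend, and it was reversed in the thinned counts (0.39). RPLP1, a stalk gene, was at 1356 ± 63.8 CPM at day 10 and 1433 ± 44.5 CPM at day 4 (log2 fold change -0.08, SE 0.02, adjusted p = 0.18, exact permutation p = 0.00633 unadjusted), and 21 of 31 fits that left out 1 library lost this call. At day 13 no member was called against day 4 in limma-voom (0 of 52, beside 0.509% of genes), where 6 members (11.5%, beside 6.46% of all genes) had an unadjusted p under 0.05 and edgeR, DESeq2 and limma-trend called 0 members too. Against day 10, only RPL34 was called at day 13, beside 0.0226% of genes, with 20813 ± 2995 CPM at day 13 and 20117 ± 3149 CPM at day 10 (exact permutation p = 0.542).

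Among the other genes of ribosome production, 49 of 50 listed assembly factors of the large subunit were tested and 0 were called by limma-voom, edgeR or DESeq2 in any of these comparisons, whereas limma-trend called 1 for the dependence on total UMIs. With strong KD 5 of them had an unadjusted p under 0.05 in limma-voom, beside 5.58% of all genes, and with moderate KD 3, beside 4.62%. Their median log2 fold change was 0.07 with strong KD and 0.03 with moderate KD. Of the 34 small-subunit genes 0 were called with strong KD by limma-voom, edgeR or DESeq2 (median -0.01, 3 at an unadjusted p under 0.05), and 1, RPS18, was called lower with moderate KD by limma-voom alone among these (-0.19, SE 0.04, adjusted p = 0.197). Over all days with sh-XIAP, limma-voom called 2 of them higher, RPS18 (0.15, SE 0.02, adjusted p = 1.92e-06) and RPS2 (0.06, SE 0.02, adjusted p = 0.191), and edgeR, DESeq2 and limma-trend called 0.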

How the data were processed

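RNA of 31 NALM-6 libraries was sequenced by prime-seq, a bulk protocol that tags each molecule with a UMI near its 3′ end. The authors deposited 1 table of raw UMI counts per Ensembl gene and library, without normalization. Their processing notes name STAR 2.6.0a and the builds hg38, mm10, GRCh38 and GRCm38. For the counter and its annotation, a name is not given in the sources used here. Symbols and types were taken from GENCODE 29 (29928 of 30667 identifiers matched). Each library was grouped by the construct and day of its label.

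The members and lists were chosen with earlier results of these data known. A gene was tested if it exceeded 1 CPM in 1/3 or more of the libraries fitted. Tests were made by limma-voom (limma 3.58.1) on TMM-normalized counts (edgeR 4.0.16, R 4.3.3), with construct and day as terms, Benjamini-Hochberg adjustment over all genes and the study's threshold of 0.25. All 52 members passed this filter. Results for 1 member are not reported here by name. Single genes were compared by exact permutation tests within days or constructs, two-sided, and summed shares by their means and ranges. DESeq2 1.42.0, edgeR's quasi-likelihood test, limma-trend with a prior count of 2, other scalings, added pseudogene counts, thinning to 312852 UMIs and leaving out each library were the alternatives.

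Values named in full were those of called members (up to 4 in each direction), the 3 highest, 3 lowest and 3 most variable members, the copies with their parents, the stalk genes, RPL5, RPL11, RPL34, RPL36A, RPL3 and RPL29. RPL28, RPL31, RPL32, RPL26, RPL37 and RPL39 were added to the exact tests after their spread had been seen. On simulated data, 179 of 200 genes changed 2-fold were recovered for strong KD among 17189 genes, with 59 false calls. The same check for the dependence on total UMIs recovered 151 of 200 genes among 17277 genes, with 111 false calls. No same-numbered libraries correlated above 0.1 (40 pairs within a day and 28 within a construct), so numbers were not used as pairs. No library was a copy of the counts of another (chi-square per gene 1.08 to 2.75 over 26 pairs within groups). A value near 1 is that of independent draws from the same RNA, so this check cannot tell technical repeats from separate cultures. Counts limit the precision: RPL3L had 39 UMIs in all and RPL34 at least 6919 in each library.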

Additional observations from a re-analysis of the deposited data

Results flagged for a closer look

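Within the libraries of days 10 and 13 of each construct, 72 sets of values (the summed share and 17 members) were searched for a library far from the others by Dixon's criterion. By chance about 1 in 20 sets of values not chosen for their spread would stand out. Here 8 did, 4 of them of RPL28, RPL31 and RPL32, which were taken up after their spread had been seen, so that this rate cannot be applied to the search. RPL28 was at 1704 CPM in SFFV/sh-XIAP day 10 replicate 3 (others 553 to 808 CPM, n = 6) and at 958 CPM in EF1a/sh-CTRL day 13 replicate 3 (others 630 to 719 CPM). RPL32 was at 1310 CPM in EF1a/sh-XIAP day 13 replicate 3 (others 705 to 806 CPM, n = 5). RPL31 was at 1809 CPM in SFFV/sh-XIAP day 10 replicate 2, the library with the fewest UMIs, in which RPL12 was at 885 CPM (others 962 to 996 CPM). RPLP0 was at 3282 CPM in EF1a/sh-CTRL day 13 replicate 3 (others 3539 to 3680 CPM), RPLP1 at 1562 CPM in SFFV/sh-CTRL day 13 replicate 2 and RPLP2 at 835 CPM in EF1a/sh-XIAP day 13 replicate 2.

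The effects of strong and moderate KD on RPL34 differed by the test of their difference (log2 -0.35, SE 0.03, limma-voom adjusted p = 1.57e-10), with the weighting described above, and by none of DESeq2, limma-trend and edgeR's quasi-likelihood test.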

How the results depend on the processing

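Of the alternative values of the counts and shares, 61 stayed in place, 65 moved and 5 turned sign, and apart from the named exceptions the cause was not tested. The percent of all genes called stands in brackets. The number of members called with strong KD (2) was 1 at an adjusted p of at most 0.05 (0.0113%), 4 with edgeR (0.271%), with DESeq2 size factors (0.17%) and with pseudogenes added (0.0873%), 3 over both constructs and all days (0.113%), and 0 with DESeq2 (0%), without TMM (0.0283%), without a filter (0.0144%), thinned (0.00614%) or with total UMIs in the fit (0.017%). With moderate KD (1) it was 2 with edgeR, DESeq2 size factors and total UMIs (0.017% each), 6 without a filter (0.0686%), and 0 with DESeq2, limma-trend, thinning and the replicate block (0% each) and no TMM (0.0113%). For strong minus moderate KD (1) it was 0 with DESeq2, no TMM and pseudogenes added (0% each), limma-trend (0.00566%), no filter (0.00361%) and thinning (0.0123%), and for the promoters (1) it was 0 with edgeR (0.0283%) and with DESeq2, limma-trend, no TMM, pseudogenes, thinning and the replicate block (0% each). For strong KD at day 4 (2) it was 1 with edgeR (0.0436%), 4 without TMM (0.0327%), 5 with pseudogenes (0.0337%) or total UMIs (0.06%), 6 with the replicate block (0.136%) and 0 with DESeq2, limma-trend, DESeq2 size factors and thinning (0% each). For day 10 against day 4 (2) it was 0 at 0.05 (0.0849%), with edgeR (0.192%), DESeq2 (0.119%) and limma-trend (0.209%), 1 without TMM (0.238%), with DESeq2 size factors (0.277%) and thinned (0.0941%), 5 with pseudogenes (0.291%), 4 with total UMIs (0.566%) and 16 without a filter (29.8%). For day 13 against day 4 (0) it was 4 without a filter (0.37%), 7 with pseudogenes (0.611%) and 2 with total UMIs (0.73%). For day 13 against day 10 (1) it was 0 with edgeR (0.017%), DESeq2 (0.00566%), limma-trend (0.0509%), no TMM (0.017%), pseudogenes (0.0116%) and thinning (0%), 2 with the replicate block (0.0453%) and 4 with total UMIs (0.226%). For the dependence on total UMIs (11) it was 7 with edgeR (0.735%), 5 with DESeq2 (0.492%), 6 with limma-trend (1.85%) and 26 without a filter (54.4%). Same-numbered libraries did not correlate above 0.1, so these data do not show that libraries in a block share more than a number.

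Leaving out 1 library gave 0 to 4 members with strong KD, 0 to 3 with moderate KD and for their difference, 0 to 1 for the promoters, 0 to 6 at day 4, 0 to 3, 0 to 1 and 0 to 2 for the day comparisons in the order above, and 9 to 14 for depth. The difference in the summed share ran from -0.643 to -0.323 percentage points with strong KD, from 0.0397 to 0.222 with moderate KD, from 0.198 to 0.413 between promoters, from -0.0930 to 0.119 for day 10 against day 4, from 0.0886 to 0.263 for day 13 against day 4 and from 0.0822 to 0.248 for day 13 against day 10. Without RPL34, RPL29 and RPL37 it was -0.0819 with moderate KD, -0.0398 between promoters and -0.00749 for day 10 against day 4, which was -0.0163 without strata, and the correlation with total UMIs was 0.444.

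RPL34 turned sign most often, with the weights given above. Its log2 fold change with strong KD was 0.083 without a filter, 0.13 with pseudogenes and 0.24 thinned. At day 4 it was -0.038 with edgeR, -0.033 with DESeq2, -0.031 with limma-trend, -0.12 without a filter and -0.27 with pseudogenes. For day 10 against day 4 it was 0.39 thinned, for day 13 against day 10 -0.011 without a filter and -0.45 thinned, for strong minus moderate KD 0.13 thinned, and for sh-XIAP over all days 0.025 without a filter and 0.15 with pseudogenes. Leaving out 1 library gave -0.050 to 0.16 for the promoters, -0.41 to 0.16 for strong minus moderate KD, -0.043 to 0.15 at day 4 and -0.21 to 0.10 over all days. RPL37 had a slope with depth of 8.12 without a filter, a fit that called 16193 genes beside 314 with the filter and 8868 beside 46 for day 10 against day 4. Over all genes strong KD gave 14 calls, beside 48 with edgeR, 18 with limma-trend, 30 with DESeq2 size factors, 5 without TMM and 0 with DESeq2 (419 genes at an unadjusted p under 0.05). XIAP at 2 to 14 UMIs and members below 20 CPM were too shallow for a comparison of single libraries.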
